A study of Homo sapiens with 9 samples.

Results

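The CBX genes encode human chromobox proteins, and 7 of them were taken by their names from the 57820 genes of the count table. They are the 3 heterochromatin protein 1 (HP1) genes CBX1, CBX3 and CBX5 and the 4 Polycomb genes CBX2, CBX6, CBX7 and CBX8. Their RNAs were measured in 9 Chrom-seq libraries from HEK293T cells, an established human embryonic kidney line. All cells carried a plasmid for scFv-APEX2, a peroxidase fused to an antibody fragment and driven by the chicken β-actin promoter, and a pcDNA3.1 plasmid for 10 copies of the SunTag (GCN4) epitope followed by mCherry. In the 3 libraries of the CBX1 group the epitopes were fused to the mouse CBX1 chromodomain, residues 18 to 82. In the 3 CBX1_W42A libraries that domain carried the change W42A, and in the 3 Control libraries the epitopes had no reader. Every group was transiently transfected for 48 hours and treated alike, with 500 µM biotin-aniline (30 min) before labeling by 1 mM hydrogen peroxide (1 min). RNA that had taken up biotin was isolated with streptavidin, selected for polyadenylation and copied from random primers. A count in these libraries is therefore captured RNA, in which the abundance of a transcript in the cell and its labeling cannot be told apart. The study calls its replicates independent, and neither it nor the labels say that they were separate cultures, so p-values measure the spread between these libraries.

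The chromodomain is a small fold that holds a methylated lysine of the histone H3 tail in a cage of aromatic residues. HP1 proteins read trimethylated lysine 9 (H3K9me3), the mark of constitutive heterochromatin, and join neighbouring nucleosomes through a second folded domain that forms dimers. Polycomb CBX proteins read trimethylated lysine 27 (H3K27me3) and are the interchangeable chromatin-binding subunits of canonical Polycomb repressive complex 1 (PRC1). The reader used in this experiment was the chromodomain of an HP1 protein, so one member of the family was present both as the endogenous CBX1 gene and as a fragment on the plasmid.

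The coding sequences that correspond to the reader are shown because they place the reader beside its endogenous gene and 5 paralogs. They were read from the GRCh37 (hg19) genome on the coding strand, joined over exons, and each of the 6 runs over the codons that align with the 65 residues of the reader. Capitals mark the codon aligned with tryptophan 42, the residue replaced in CBX1_W42A.
CBX1: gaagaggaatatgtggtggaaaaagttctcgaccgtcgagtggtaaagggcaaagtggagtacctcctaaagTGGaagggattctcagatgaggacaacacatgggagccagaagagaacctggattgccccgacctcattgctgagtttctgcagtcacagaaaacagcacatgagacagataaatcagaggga
CBX3: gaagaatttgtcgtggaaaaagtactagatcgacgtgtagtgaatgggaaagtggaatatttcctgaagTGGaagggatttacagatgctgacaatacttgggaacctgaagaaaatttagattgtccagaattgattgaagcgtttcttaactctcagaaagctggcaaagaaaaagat
CBX5: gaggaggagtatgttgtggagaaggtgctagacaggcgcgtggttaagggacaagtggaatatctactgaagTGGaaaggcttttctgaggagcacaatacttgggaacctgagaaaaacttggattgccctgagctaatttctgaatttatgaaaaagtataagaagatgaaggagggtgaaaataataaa
CBX6: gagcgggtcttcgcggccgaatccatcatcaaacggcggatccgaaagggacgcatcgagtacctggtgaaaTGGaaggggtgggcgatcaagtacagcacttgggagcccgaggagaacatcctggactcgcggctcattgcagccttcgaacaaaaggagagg
CBX7: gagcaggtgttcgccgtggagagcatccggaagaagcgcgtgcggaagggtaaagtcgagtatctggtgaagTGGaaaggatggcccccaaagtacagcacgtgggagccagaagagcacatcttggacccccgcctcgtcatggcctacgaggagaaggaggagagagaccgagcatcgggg
CBX8: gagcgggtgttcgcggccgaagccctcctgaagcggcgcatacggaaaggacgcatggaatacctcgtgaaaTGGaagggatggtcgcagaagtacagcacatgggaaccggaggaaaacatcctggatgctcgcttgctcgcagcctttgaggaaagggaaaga
The windows lie, introns included, at chr17:46153435-46154315 on the minus strand for CBX1, chr7:26246045-26248106 on the plus strand for CBX3 and chr12:54645909-54651386 on the minus strand for CBX5. Those of the 3 Polycomb genes shown lie at chr22:39267545-39268174 on the minus strand for CBX6, chr22:39534683-39548428 on the minus strand for CBX7 and chr17:77769916-77770776 on the minus strand for CBX8.

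All 65 residues of the mouse reader were identical to human CBX1. The same codon, TGG, stood at the aligned position in the 6 genes shown. In translated sequence the CBX3 window shared 47 of 60 aligned residues with the reader (78.3%) and the CBX5 window 46 of 64 (71.9%). In CBX7 27 of 65 alignment columns, gaps included, held the same residue (41.5%), and in CBX6 and CBX8 25 of 55 did (45.5%). Among these Polycomb genes the windows were closer to each other, up to 45 of 55 residues (81.8%) between CBX6 and CBX8. Exon structure divided the 6 genes in the same way. The window was cut into 2 pieces in each HP1 gene, whereas in each of the 3 Polycomb genes it was cut into 4 pieces whose first 3 were 48, 44 and 66 bases long. Over the whole CBX1 window, with gaps counted, coding-base identity with CBX1 was 68.2% for CBX3 (133 of 195 columns) and 69.4% for CBX5 (136 of 196). The residue values cover the aligned stretch alone, so the denominators differ. No run of identical coding bases between CBX1 and another of the 6 genes was longer than 15 bases. The reader corresponds to 195 coding bases, 6.41% of the 3044 bases in the CBX1 exon union, and the codons used on the plasmid were not used here.

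Libraries held from 8379542 to 11082852 counts in all, spread over 21709 to 23819 genes. Levels are given as CPM, a count expressed relative to its library's size after scaling by edgeR's TMM factors over the 9 libraries. The 5 HEK293T markers examined (PAX2, LHX1, VIM, CDH2 and NES) were present in every library, and their summed level was 741 to 917 CPM in Control, 647 to 773 CPM with CBX1 and 741 to 841 CPM with CBX1_W42A. The markers of other cell types that could be examined stayed low, while PECAM1 (endothelium), also planned, had no entry among the genes counted. PTPRC, ALB, HBB, COL1A2 and DES summed to 1.17 to 2.18 CPM in Control, 2.22 to 3.89 CPM with CBX1 and 0.910 to 1.90 CPM with CBX1_W42A, with HBB and COL1A2 at 0 counts throughout. The part of these differences in the results was not tested.

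All 7 members were detected in the 9 libraries, from 83 counts for CBX7 in a Control library to 7147 for CBX1 in another. CBX1 was the most abundant, CBX7 the least, and every library held more HP1 than Polycomb CPM. Per kb of exon union, the joined length of all annotated exons of a gene, CBX1 reached 192 ± 19.4 CPM per kb (SD, n = 9 libraries) and CBX3 64.6 ± 7.70 CPM per kb. CBX1 was above CBX3 in 9 of 9 libraries, by 3.01-fold on average, and CBX3 was above the next gene, CBX6, in 9 of 9. The levels of CBX6 (19.5 ± 2.18 CPM per kb), CBX2 (19.4 ± 2.31) and CBX5 (17.7 ± 1.46) did not differ beyond their spread: CBX6 exceeded CBX2 in 5 of 9 libraries and CBX2 exceeded CBX5 in 6 of 9. CBX8 (8.48 ± 0.945 CPM per kb) and CBX7 (1.46 ± 0.204 CPM per kb) followed, each below the preceding gene in 9 of 9 libraries. Among the 14636 protein-coding genes tested that had an exon length, the mean Control level per kb of CBX1 lay at the 99.4th percentile, that of CBX3 at the 96.5th, that of CBX8 at the 62.9th and that of CBX7 at the 26.6th. Together the HP1 genes made up 83.4% to 86.5% of the summed level per kb of the 7 members, and CBX1 alone made up 66% to 74.2% of the HP1 sum.

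The order at the top depended on the length used. Divided by the whole gene span, introns included, CBX3 led with 25.6 ± 3.06 CPM per kb and CBX1 followed with 18.5 ± 1.88 CPM per kb, CBX3 being higher in 9 of 9 libraries. CBX1 spans 31470 bases with an exon union of 3044 bases, while CBX3 spans 12195 bases with an exon union of 4840 bases. The transcripts marked as canonical in the annotation are shorter, with 2182 bases for CBX1, 2061 for CBX3 and 11546 for CBX5. Levels per kb of these transcripts were not computed, so the fold between CBX1 and CBX3 holds for the exon union. The plot of levels per length shows both scales side by side.

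**Figure D1:**
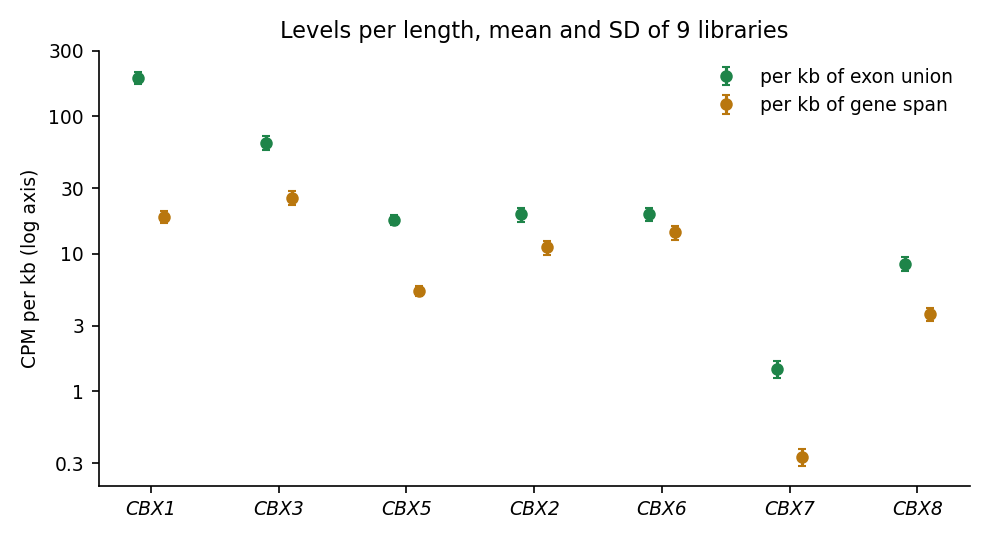
CPM per kb (log axis) of each CBX gene, divided by the length of its exon union (green) or of its gene span (brown); points are means of 9 libraries and bars are 1 SD. CBX1 stands highest per kb of exon, at 192, and CBX3 highest per kb of span, at 25.6, while CBX7 is lowest on both scales.

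CBX1, the HP1β gene whose chromodomain served as the reader, lies at chr17:46147414-46178883. Its level was 696, 559.7 and 597 CPM in the Control libraries, 537, 523 and 558 CPM with the CBX1 reader, and 579, 538 and 660.4 CPM with CBX1_W42A. The CBX1 libraries lay just below the Control libraries, by less than the range within Control, and the CBX1_W42A libraries overlapped both groups. The log2 fold change was -0.17 (SE 0.09) for CBX1 against Control, -0.06 (SE 0.11) for CBX1_W42A against Control and -0.14 (SE 0.11) for CBX1 against CBX1_W42A, with adjusted p-values of 0.22, 0.81 and 0.55 from the quasi-likelihood test of edgeR, adjusted by Benjamini-Hochberg. The 95% interval against Control ended at a fold of 1.02 with the CBX1 reader and at 1.13 with CBX1_W42A. The first of these log2 values moved from -0.17 to -0.08 when scaled by library size alone or without Control replicate 1, to -0.09 with upper-quartile factors, and to -0.24 without Control replicate 2, and it passed the test under none of the alternatives.

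CBX3 encodes HP1γ, the HP1 protein also found within active genes, at chr7:26240782-26252976. It measured 306, 376 and 311 CPM in Control, 346, 278 and 311 CPM with CBX1, and 343, 257 and 284 CPM with CBX1_W42A. The 3 groups overlapped. None of its log2 fold changes exceeded 0.17 in size, with adjusted p-values of 0.73, 0.46 and 0.79 in the 3 comparisons in the order given for CBX1.

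CBX5 encodes HP1α, the classical component of pericentromeric heterochromatin, at chr12:54624724-54673886. Its levels were 269, 235 and 266 CPM in Control and 292, 301 and 281 CPM with CBX1. With CBX1_W42A they were 245, 258 and 251 CPM. Each CBX1 library was above each library of the other 2 groups. The log2 fold change was 0.21 (SE 0.09, 95% interval 0.02 to 0.40) against Control and 0.21 (SE 0.10, 95% interval 0.01 to 0.42) against CBX1_W42A. Neither passed the test after Benjamini-Hochberg adjustment by edgeR (adjusted p = 0.111 and 0.282). Scaled by library size alone, the difference from Control was 0.30 with an adjusted p of 0.032. CBX1_W42A against Control gave -0.03 (SE 0.10).

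**Figure D2:**
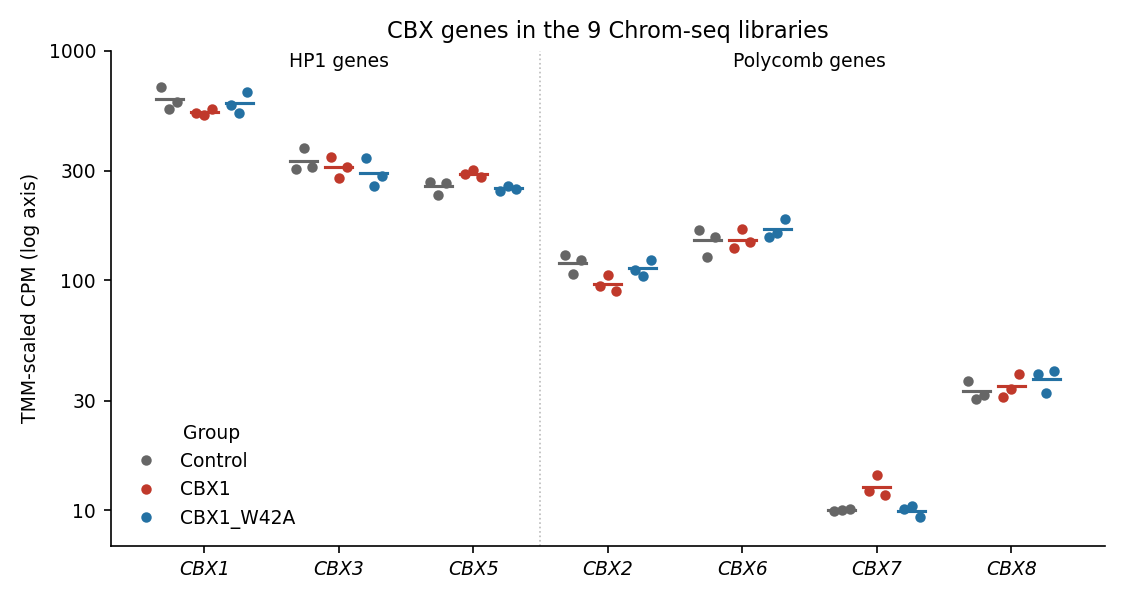
TMM-scaled CPM (log axis) of the 7 CBX genes; each point is a library, coloured by group, and each bar is the mean of 3 libraries. The groups lie close together for every gene, with CBX5 and CBX7 higher in the 3 CBX1 libraries than in the other 6.

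Of the Polycomb genes, CBX2 encodes a subunit whose charged central region compacts nucleosomes, and lies at chr17:77751931-77761782. Its level was 128, 107 and 123 CPM in Control, 94.8, 106 and 90.2 CPM with CBX1, and 111, 105 and 123 CPM with CBX1_W42A. The highest CBX1 library was below the lowest Control library by less than 1 CPM, and it overlapped the CBX1_W42A group. CBX1 against Control gave a log2 fold change of -0.28 (SE 0.10, 95% interval -0.49 to -0.07). Its adjusted p of 0.0597 in edgeR was the smallest of any member. That value crossed the threshold without Control replicate 2 (log2 -0.36, adjusted p = 0.0146) and without CBX1 replicate 2 (log2 -0.34, adjusted p = 0.0469). CBX1_W42A against Control gave -0.08 (SE 0.11), and CBX1 against CBX1_W42A gave -0.22 (SE 0.11, adjusted p = 0.301 in edgeR).

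CBX7, at chr22:39516172-39548679, encodes the Polycomb subunit best known for repression of the INK4A-ARF locus. It had few counts, 102, 89 and 83 in Control, 109, 128 and 120 with CBX1, and 111, 99 and 88 with CBX1_W42A. As CPM these were 9.94, 10.1 and 10.1 in Control, 12.1, 14.2 and 11.6 with CBX1, and 10.1, 10.4 and 9.31 with CBX1_W42A. Again each CBX1 library exceeded the other 6. The log2 fold change was 0.36 (SE 0.16, 95% interval 0.02 to 0.69) against Control and 0.34 (SE 0.17, 95% interval -0.01 to 0.70) against CBX1_W42A, the largest values of any member, with the widest errors. Adjusted p-values from edgeR were 0.119 and 0.32. CBX1_W42A against Control gave -0.01 (SE 0.18).

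CBX6 (chr22:39257455-39268319) and CBX8 (chr17:77765931-77775482), which encode PRC1 subunits with closely related chromodomains, showed overlapping groups in every comparison. CBX6 measured 167, 126 and 155 CPM in Control, 138, 167 and 147 CPM with CBX1, and 154, 161 and 186 CPM with CBX1_W42A. CBX8 measured 36.6, 30.4 and 31.7 CPM in Control, 31.1, 33.8 and 39.2 CPM with CBX1, and 39.0, 32.4 and 40.4 CPM with CBX1_W42A. For both genes the CBX1_W42A mean was the highest and the Control mean the lowest. Their log2 fold changes lay between -0.15 and 0.18 over the 3 comparisons, with adjusted p-values from 0.474 to 0.843 in edgeR.

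Read together, 0 of the 7 members met the call used for enriched RNAs in the study, an adjusted p below 0.05 together with a minimum log2 fold change of 0.75, in any of the 3 comparisons. In CBX1 against Control, edgeR called 7.4% of the 18837 genes tested, and at an unadjusted p below 0.05, which 34.2% of the genes met, there were 3 members (CBX5, CBX2 and CBX7). In CBX1_W42A against Control, edgeR called 0.996% of 18680 genes, and 0 members had an unadjusted p below 0.05 against 19.3% of all genes. In CBX1 against CBX1_W42A, edgeR called 0.997% of 19360 genes, and 1 member (CBX5) had an unadjusted p below 0.05 against 16.6% of all genes. DESeq2 called 0 members in each comparison, and 6.27%, 1.2% and 1.1% of the genes it adjusted. Without a minimum fold, 20.1%, 2.62% and 2.24% of all genes and again 0 members had an adjusted p below 0.05. Abundance differed between members. Among 14848 protein-coding genes with a count sum above 18, Control CPM of CBX7 lay at the 31.4th percentile and that of CBX8 at the 53.4th. The other members lay at the 86.2nd or above. Among the 10398 genes at least as abundant as CBX7 in CBX1 against Control, 1.75% were called and 23.2% had an adjusted p below 0.05. The 3 comparisons share libraries, CBX1 and CBX1_W42A having been set against the same Control.

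Libraries of the compared groups did not overlap in CPM for 4 members in CBX1 against Control, CBX5 and CBX7 being higher and CBX1 and CBX2 lower, beside 38% of all genes tested. When CPM was taken by library size alone, the groups of CBX1 and CBX2 overlapped, while CBX5 and CBX7 stayed apart. In CBX1_W42A against Control all 7 members overlapped, where 24.6% of all genes did not. In CBX1 against CBX1_W42A, CBX5 and CBX7 did not overlap, beside 21.3% of all genes. The members' median log2 fold change was 0.04, -0.03 and -0.10 in the 3 comparisons, that of all genes tested 0.03, 0.01 and 0.00, and that of genes at least as abundant as CBX7 -0.09, -0.07 and -0.03. Every 95% interval stayed within log2 -0.49 and 0.70, short of the minimum fold of 0.75.

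**Figure D3:**
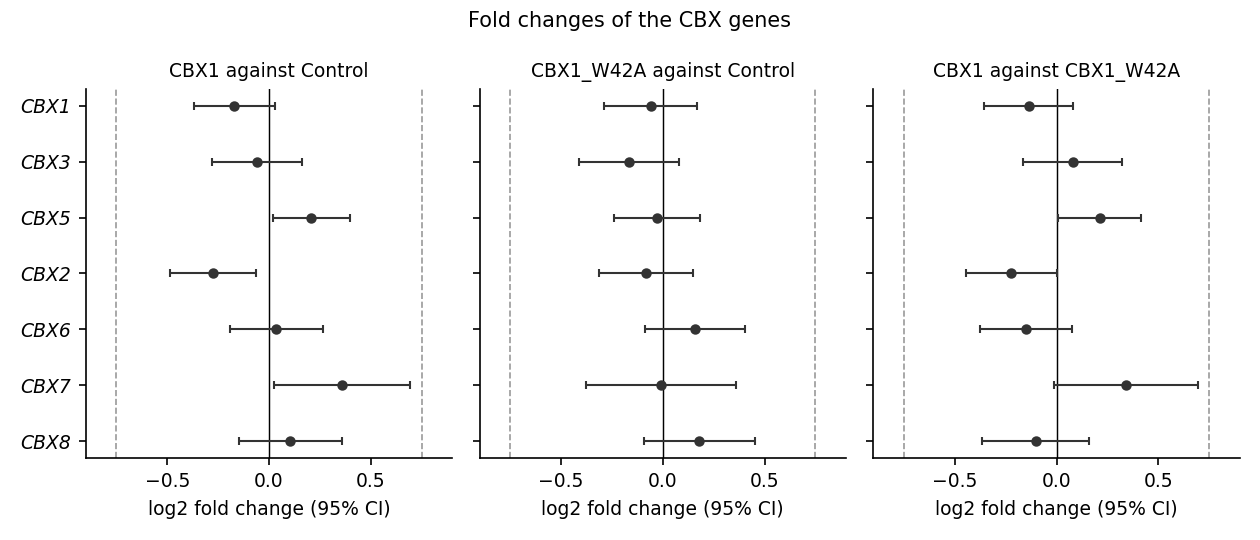
Log2 fold change of each CBX gene in the 3 comparisons; points are edgeR estimates from 3 against 3 libraries, bars are 95% intervals and dashed lines mark the log2 fold change of 0.75 needed for a call. All intervals lie inside the dashed lines, and those of CBX5, CBX2 and CBX7 exclude 0 in CBX1 against Control.

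The ratio of CBX1 counts to those of an HP1 paralog within a library needs no scaling between libraries. On the log2 scale the ratio of CBX1 to CBX3 was 1.19, 0.57 and 0.94 in Control, 0.63, 0.91 and 0.84 with CBX1, and 0.76, 1.06 and 1.22 with CBX1_W42A. The 3 groups overlapped. The 6 libraries with a reader differed from Control by 0.00, with an exact permutation p of 1 (two-sided, 84 arrangements, smallest possible p 0.0119). The ratio of CBX1 to CBX5 was 1.37, 1.25 and 1.17 in Control, 0.88, 0.80 and 0.99 with CBX1, and 1.24, 1.06 and 1.39 with CBX1_W42A. The reader libraries were lower on average by 0.20 (exact permutation p = 0.214, Benjamini-Hochberg over the 2 ratios 0.429). This came from the CBX1 group, in which each library was below each Control library (difference -0.38, exact permutation p = 0.1, the smallest that 3 against 3 allows). CBX1_W42A differed from Control by -0.03 (exact permutation p = 0.9). Ratios to the Polycomb genes were not tested. For CBX2, CBX6, CBX7 and CBX8 the 6 reader libraries differed from Control by 0.07, -0.22, -0.28 and -0.25. The log2 ratio to CBX8 was 3.83 to 4.11 in the reader libraries and 4.20 to 4.25 in Control. For CBX2, CBX6 and CBX7 the reader and Control libraries overlapped. How often such ratios separate among other genes was not examined.

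**Figure D4:**
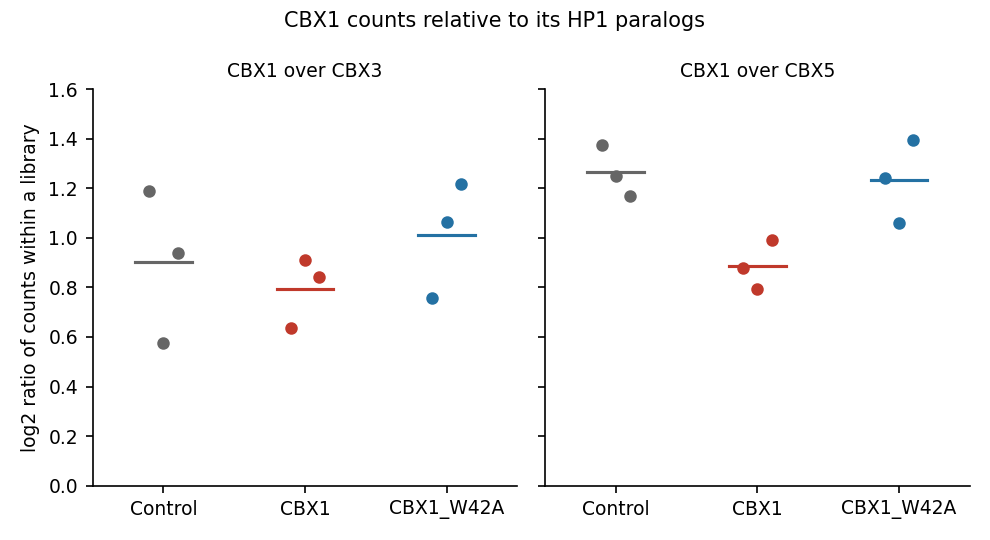
Log2 ratio of CBX1 counts to CBX3 counts (left) and to CBX5 counts (right); each point is a library and each bar the mean of 3. The ratio to CBX3 overlaps between groups, and the ratio to CBX5 is 0.80 to 0.99 in the CBX1 libraries against 1.17 to 1.37 in Control.

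Reads of the HP1 genes can be shared with copies elsewhere in the genome. The CBX1 transcript marked as canonical in the annotation had 5 other alignments of at least 200 bases, 1 of them at 95% identity or more. That of CBX3 had 8 (2 at 95% or more), and that of CBX5 had 2 (0 at 95% or more). The Polycomb genes had 0. The table lists 15 CBX pseudogenes, of which 10 had 0 counts over the 9 libraries, which allows up to 0.035 CPM each. Counts of the others came to 0.635% of the CBX3 count for its 9 pseudogenes and 0.0739% of the CBX1 count for its 5. CBX1P3 had 4 counts in Control, 16 with CBX1 and 7 with CBX1_W42A, too few for a call (log2 1.87, SE 0.85, adjusted p = 0.132 in edgeR for CBX1 against Control). How the counting divided reads between a gene and such copies is not given in the sources used here.

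Of the overlapping and flanking genes fitted, 0 met the call in any comparison. CBX3 shares 368 bases with HNRNPA2B1 on the opposite strand, which encodes a splicing factor and gave -0.15 (SE 0.10) in CBX1 against Control, and whether strand was used in counting is not stated. The antisense RNAs RP11-968A15.2 and RP11-353N14.1, inside or beside CBX5 and CBX8, had 13 counts each over the 9 libraries, and RP11-968A15.8, opposite CBX5, had 85. Its log2 fold change was 1.31 (SE 0.53, adjusted p = 0.0881 in edgeR) in CBX1 against Control and 1.19 (SE 0.56, adjusted p = 0.252) in CBX1_W42A against Control. Small RNA genes and a pseudogene on the same strand within CBX1, CBX5 and CBX7 had 0 counts. Of the genes beside CBX1, NFE2L1, a stress-response transcription factor, had a log2 fold change of -0.31 (SE 0.10, adjusted p = 0.0287 in edgeR) in CBX1 against Control, below the minimum fold. SNX11, a sorting nexin on the other side, gave -0.26 (SE 0.18, adjusted p = 0.339).

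The genes that work with the family were taken from 4 lists of 65 genes in all, each of them in the table and 3 of them on more than 1 list. Among the 21 HP1 and H3K9 methylation partners, 1 gene was called in CBX1 against Control. This was CHAF1B, a subunit of chromatin assembly factor 1, which brings histones to newly replicated DNA. It measured 131, 118 and 114 CPM in Control, 63.8, 75.5 and 65.6 CPM with CBX1, and 87.6, 96.6 and 92.7 CPM with CBX1_W42A. The 3 groups did not overlap, in a gene named because it was called. By pairs of groups, 38% (CBX1 against Control), 24.6% (CBX1_W42A against Control) and 21.3% (CBX1 against CBX1_W42A) of all genes did not overlap. CHAF1B fell by 0.80 (log2, SE 0.10, adjusted p = 7.8e-05 in edgeR) in CBX1 against Control. Called lower genes made up 0.34% of all genes tested in this comparison. The value stood near the minimum fold, and the call was lost with upper-quartile factors (-0.71), with library size alone (-0.71), without Control replicate 1 (-0.74) and without CBX1 replicate 1 (-0.75). CBX1 against CBX1_W42A gave -0.44 (SE 0.11, adjusted p = 0.034 in edgeR), an adjusted p that rose above 0.05 in 5 of 14 alternatives. These were library size alone (0.0548) and the fits without CBX1 replicate 1 (0.18) or 3 (0.168) and without CBX1_W42A replicate 2 (0.0602) or 3 (0.0758). CBX1_W42A against Control gave -0.39 (SE 0.11, adjusted p = 0.0544 in edgeR).

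Judged by the adjusted p alone, 1 of the 21 HP1 partners was higher and 4 were lower in CBX1 against Control, where 10.6% of all genes were higher and 9.46% lower. Among genes at least as abundant as CBX7 the share was 23.2%, in either direction. The 4 lower genes became 1 with upper-quartile factors, with library size alone and without CBX1 replicate 3. The list's median log2 fold change was -0.12, beside -0.09 for genes at least as abundant as CBX7 and 0.03 for all genes. The higher gene was ATF7IP, the partner of the H3K9 methyltransferase SETDB1 (log2 0.52, SE 0.09, adjusted p = 0.00125 in edgeR). In CBX1 against CBX1_W42A, 2 of the 21 were higher and 1 (CHAF1B) was lower by adjusted p, beside 2.24% of all genes in either direction. ATF7IP gave 0.73 (SE 0.11, adjusted p = 0.000733 in edgeR) there, and SETDB1 itself gave 0.47 (SE 0.11, adjusted p = 0.0327). ATF7IP kept an adjusted p below 0.05 in all 14 alternatives of both comparisons. SETDB1 lost it without CBX1 replicate 1 (0.211) or 3 (0.114) and without CBX1_W42A replicate 1 (0.0731) or 3 (0.111). In CBX1 against Control SETDB1 gave 0.16 (SE 0.13, adjusted p = 0.39 in edgeR). CBX1_W42A against Control gave -0.33 (SE 0.13) for SETDB1 and -0.24 (SE 0.11) for ATF7IP. In CBX1_W42A against Control, 0 of the 21 had an adjusted p below 0.05 by edgeR, 7 had an unadjusted p below 0.05 (19.3% of all genes did), and the 2 largest values were those of the methyltransferase gene SUV39H2 (-0.41) and the demethylase gene KDM4A (-0.40).

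The PRC1 list holds 17 genes, of canonical complexes, which the Polycomb CBX proteins join, and of variant complexes, which lack a CBX subunit. Of these genes 0 were called in any comparison. In CBX1 against Control 7 of them had an adjusted p below 0.05 in edgeR, all of them lower, beside 9.46% of all genes. In either direction the share was 23.2% among genes at least as abundant as CBX7. The list's median was -0.23, beside -0.09 for genes at least as abundant as CBX7. The count of lower genes was 3 with library size alone, and 4 with upper-quartile factors or without CBX1 replicate 3. The 2 largest values were those of PHC1, a polyhomeotic subunit (-0.55, SE 0.11, adjusted p = 0.0037), and PCGF6, a RING-finger subunit of a variant PRC1 (-0.44, SE 0.10, adjusted p = 0.00473). PHC1 measured 87.1, 65.8 and 79.2 CPM in Control, 57.5, 47.1 and 51.7 CPM with CBX1, and 54.4, 58.0 and 69.5 CPM with CBX1_W42A. PCGF6 measured 85.3, 83.5 and 78.6 CPM in Control, 53.7, 63.1 and 62.0 CPM with CBX1, and 73.7, 85.8 and 75.3 CPM with CBX1_W42A. For both genes, which were picked by the size of this change, each CBX1 library was below each Control library. In that comparison the groups did not overlap for 38% of all genes. In CBX1_W42A against Control and in CBX1 against CBX1_W42A, 0 PRC1 genes had an adjusted p below 0.05 by edgeR, and 3 and 6 had an unadjusted p below 0.05, beside 19.3% and 16.6% of all genes.

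Of the 11 genes of PRC2, the H3K27 methyltransferase complex, 2 had an adjusted p below 0.05 in CBX1 against Control, both of them lower, beside 9.46% of all genes. They were the core subunit gene SUZ12 (-0.34, SE 0.09, adjusted p = 0.0139 in edgeR) and the histone-binding subunit gene RBBP7 (-0.32, SE 0.09, adjusted p = 0.0155). Neither kept it with library size alone, with upper-quartile factors or without CBX1 replicate 2, and SUZ12 also lost it without CBX1 replicate 3 and RBBP7 with the replicate number as a block (adjusted p = 0.0538). Among 19 other chromodomain genes, 1 was higher and 3 were lower by adjusted p in that comparison, beside 10.6% and 9.46% of all genes. The largest values were those of the chromatin remodeler genes CHD5 (0.56, SE 0.14, adjusted p = 0.00994 in edgeR) and CHD1 (-0.40, SE 0.09, adjusted p = 0.00431). CHD5 gave 0.71 (SE 0.15, adjusted p = 0.0235 in edgeR) in CBX1_W42A against Control, where its adjusted p rose to between 0.0511 and 0.08 without any 1 of Control replicates 1, 2 and 3 and CBX1_W42A replicates 2 and 3. None of these reached the minimum fold, and the 3 lower chromodomain genes became 1 with library size alone and without any of Control replicates 1 and 2 and CBX1 replicates 1 and 3. The medians of the PRC2 and chromodomain lists were -0.13 and -0.11 in CBX1 against Control. Of genes at least as abundant as CBX7, 23.2% had an adjusted p below 0.05 there, in either direction. In CBX1 against CBX1_W42A, 1 chromodomain gene had an adjusted p below 0.05, beside 2.24% of all genes. This was ARID4B (-0.53, SE 0.13, adjusted p = 0.0311 in edgeR), which gave 0.28 (SE 0.12) in CBX1_W42A against Control. Over 14 alternatives the count of lower genes ranged from 0 to 1.

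**Figure D5:**
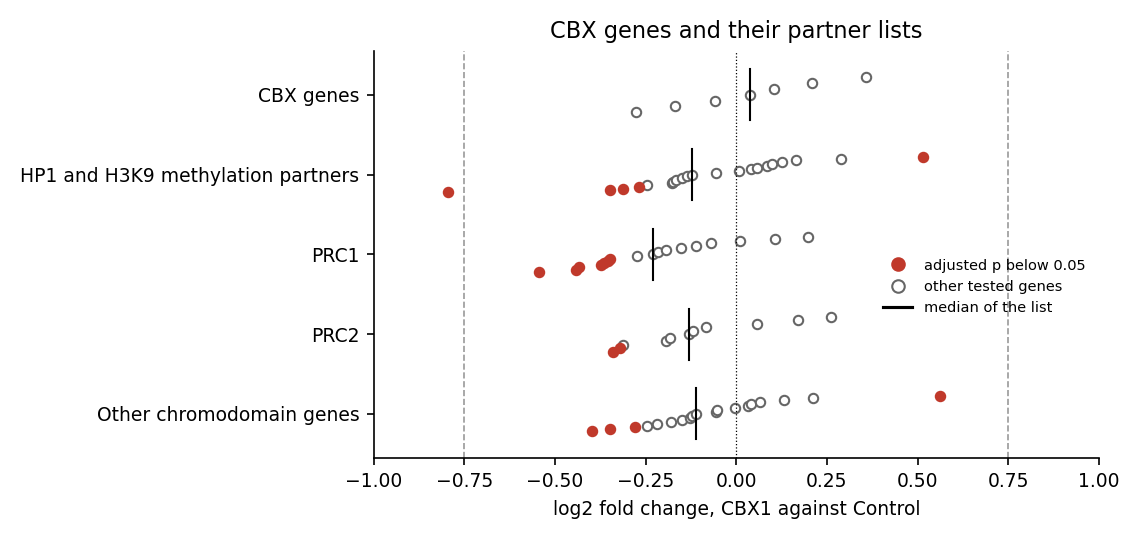
Log2 fold change in CBX1 against Control of the 7 CBX genes and of 4 lists of related genes; each point is a gene, filled red at an adjusted p below 0.05, with the list's median as a black line and the minimum fold of 0.75 dashed. The CBX genes hold no red point, and CHAF1B at -0.80 is the point beyond a dashed line.

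Over the 9 libraries, the genes whose log2 CPM followed that of CBX1 most closely, among 10747 genes with a mean of at least 10 CPM, were EEF2, a translation elongation factor (Pearson r = 0.956), THEM6 (r = 0.952) and NELFA, a subunit of the negative elongation factor (r = 0.944). These values describe 9 points that share 3 groups and the depth of each library. Among the paralogs CBX2 was closest to CBX1 (r = 0.793), ranked 276 of the 10747, and CBX6 and CBX8 gave 0.504 and 0.495. CBX3 gave -0.05, CBX5 -0.33 and CBX7 -0.69.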

How the data were processed

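Chrom-seq libraries of 3 groups of 3 were analysed. The study's methods and the submitters' processing notes name FastQC (version 0.11.8), fastp (version 0.23.1), HISAT2 (version 2.1.0) on hg19, featureCounts (version 2.0.1) with GENCODE version 19, and DESeq2 (version 1.34.0). The authors deposited whole-number counts per gene, not normalized, for 57820 genes, with 0 rows that name no gene. The length listed there is the gene span, so exon unions were taken from the GRCh37 annotation given with the genome. That annotation is a later GENCODE release than version 19, so its exons can differ from those counted.

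Counts were tested with edgeR (version 4.0.16) in R (version 4.3.3), using TMM factors and the quasi-likelihood test on the 2 groups compared, for genes with a count sum above 18 over 6 libraries, and adjusted by Benjamini-Hochberg over all genes tested. A call needed both an adjusted p below 0.05 and a minimum log2 fold change of 0.75. Filter and thresholds follow the study. CPM used TMM factors over 9 libraries, and correlations used log2 CPM with a prior count of 2. Transcripts were aligned to the genome with minimap2 (version 2.31), and windows with biopython (version 1.88). The ratio tests were exact permutation tests. Scripts were tested on simulated data. DESeq2 (version 1.42.0) was an alternative, with other factors, filters, a replicate block and each library left out. Settings for partner genes were added after the data were seen.

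The labels gave every group and replicate number, and no batch. Same-numbered libraries correlated between -0.07 and 0.07 in their deviations, so numbers were not taken as pairs. No 2 replicates held identical counts. All members are named. Partner genes are named where called, and otherwise from the 2 with the largest change per list, not all of which are given. Also named are the 3 genes closest to CBX1 in correlation, genes that overlap or flank a member, and CBX pseudogenes. The members and lists were chosen with earlier results of these data known. Another Polycomb CBX paralog and the chromodomain window of CBX2 are not reported here.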

Additional observations from a re-analysis of the deposited data

How the results depend on the processing

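Of 294 alternative log2 fold changes of the 7 CBX genes, 273 kept their direction and stayed short of a call, and 21 changed sign, each for a value near 0. The count of members called was 0 under every alternative. The adjusted p alone fell below 0.05 under some alternatives for CBX2 and CBX5 in CBX1 against Control. In CBX1 against Control, CBX3 changed sign with upper-quartile factors (0.023) and with library size alone (0.029), and ranged from -0.14 to 0.033 with a library left out, while CBX6 ranged from -0.079 to 0.12. In CBX1_W42A against Control, upper-quartile factors and library size alone gave 0.028 and 0.014 for CBX1, 0.058 and 0.044 for CBX5, and 0.077 and 0.064 for CBX7, upper-quartile factors gave 0.0064 for CBX2, and filterByExpr gave 0.0086 for CBX7. With a library left out these ranged from -0.14 to 0.044 for CBX1, from -0.077 to 0.014 for CBX5 and from -0.045 to 0.038 for CBX7. CBX3 in CBX1 against CBX1_W42A ranged from -0.00059 to 0.21. The difference from Control in the log2 ratio of CBX1 to CBX3 was -0.11 with the CBX1 reader alone. For the reader libraries together, this difference ranged from -0.16 to 0.15 with a library left out. That in the ratio of CBX1 to CBX5 ranged from -0.27 to -0.15. The cause of these changes was not tested. Per kb of gene span the levels were 18.5 CPM per kb for CBX1, 25.6 for CBX3, 5.42 for CBX5, 11.1 for CBX2, 14.3 for CBX6, 0.334 for CBX7 and 3.66 for CBX8, since introns enter that length.

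The replicate numbers were not taken as pairs, since no same-numbered pair correlated above 0.07 in its deviations. In 11 of 18 library by group tests the highest correlation was with the same number, where an even share of the 3 numbers would be 6, and the 3 same-numbered pairs of CBX1 and CBX1_W42A gave 0.041 to 0.052, a hint of pairing from the data and not from the design. With the replicate number as a block, 0 members were called and CBX2 gave -0.27 (adjusted p = 0.131 in edgeR) in CBX1 against Control. The block called 316 genes in place of 193 in CBX1 against CBX1_W42A, and left 4 in place of 7 PRC1 genes lower in CBX1 against Control. Without the filter on low counts, 314 genes were called in place of 193 in CBX1 against CBX1_W42A and 347 in place of 186 in CBX1_W42A against Control, where the fit of all 9 libraries called 287. With a library left out, the calls over all genes ranged from 1030 to 1293, from 33 to 111 and from 85 to 218 in the 3 comparisons. CBX2 in CBX1 against Control reached an adjusted p of 0.0459 without the filter, and CBX5 0.0339 with upper-quartile factors. Depth limits CBX7 most, with 83 to 128 counts per library.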
